A study of Mus musculus with 18 samples.

Results

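The genes followed here take up vitamin A and its plant precursors in the gut and convert them to retinyl esters or retinoic acid. They were 10 of the 37074 gene names on the array: *Isx*, *Bco1* (listed under its older name *Bcmo1* in some sources), *Rbp2*, *Lrat*, *Rdh7*, *Dhrs3*, *Aldh1a1*, *Aldh1a2*, *Adh1* and *Rarb*. They were chosen by name for their roles in this route, with earlier results of these data known. Each was read at its brightest probe. Of these, 9 passed the filter on dim probes, as did 21542 of all gene names, and *Rarb* did not.

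RNA came from chelator-released cells of the ileum of 18 mice, 1 one-colour Agilent array per mouse, on which a brighter spot means more of the matching transcript. There were 6 mice labelled iPGC1afl/fl on CHOW, 6 labelled iPGC1afl/fl on HFD and 6 labelled iPGC1a-/- on HFD, which started their diet at the age of 8 weeks, kept it for 8 weeks and were killed fasted at zeitgeber time 3. The HFD, which the study names western diet, held 42% of kcal as fat, with milk fat and 0.2% cholesterol. The vitamin A content of the diets is not given in the sources used here. All mice carried the floxed *Ppargc1a* alleles, and in the iPGC1a-/- mice Cre recombinase under the Villin promoter, which is active in the intestinal epithelium, was to remove several of its exons. On the arrays, *Ppargc1a* was not lower under that label. Its log2 normalized signal averaged 11.38 ± 0.07 (SD, n = 6) in iPGC1afl/fl mice and 11.67 ± 0.26 (SD, n = 6) in iPGC1a-/- mice on HFD, and whether its probes lie in the deleted exons was not determined. The study checked the deletion by RT-qPCR, which was not analysed here. Directions by genotype below refer to the labels.

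Dietary provitamin A carotenoids enter the enterocyte and are cleaved to retinal, which is reduced to retinol. Most retinol is bound inside the cell, esterified and exported in chylomicrons. A smaller part is oxidised in a pair of steps, retinol to retinal and retinal to retinoic acid, and retinoic acid binds nuclear receptors (RAR with RXR). In the gut this route also feeds back on itself, since retinoic acid induces the homeodomain repressor Isx, which lowers carotenoid uptake and cleavage.

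Sequences upstream of the genes are shown first, since the factors of this feedback act there. RefSeq promoters (GRCm38.p6, 250 bases before to 50 after a transcription start) matched all 10 members, with 14 starts in all. They were searched on both strands for TAATTA, the core that many homeodomain proteins bind, and for DR5 and DR2, the paired AGGTCA-type sites that RAR and RXR bind. The spacing named DR1, bound by PPAR with RXR among others, was added after the values were seen, as was the promoter of *Rarb*. The 250 bases before the start are printed 5′ to 3′ on the gene's strand for *Bco1* (the member lower on HFD), *Rbp2* (a member higher on HFD) and *Rarb*, with the matched elements in capitals.
Bco1, GRCm38.p6 chr8:117095615-117095864, plus strand: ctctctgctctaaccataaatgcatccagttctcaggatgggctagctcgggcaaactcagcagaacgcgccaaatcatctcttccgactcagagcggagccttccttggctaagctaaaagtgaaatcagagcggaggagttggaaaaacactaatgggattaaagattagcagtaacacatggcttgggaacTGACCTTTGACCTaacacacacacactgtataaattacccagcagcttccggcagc
Rbp2, GRCm38.p6 chr9:98490287-98490536, plus strand: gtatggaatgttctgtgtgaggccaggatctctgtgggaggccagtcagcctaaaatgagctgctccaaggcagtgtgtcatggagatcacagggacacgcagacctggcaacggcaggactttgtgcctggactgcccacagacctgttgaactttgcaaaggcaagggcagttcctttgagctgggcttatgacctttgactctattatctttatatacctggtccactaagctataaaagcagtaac
Rarb, GRCm38.p6 chr14:16575477-16575726, minus strand: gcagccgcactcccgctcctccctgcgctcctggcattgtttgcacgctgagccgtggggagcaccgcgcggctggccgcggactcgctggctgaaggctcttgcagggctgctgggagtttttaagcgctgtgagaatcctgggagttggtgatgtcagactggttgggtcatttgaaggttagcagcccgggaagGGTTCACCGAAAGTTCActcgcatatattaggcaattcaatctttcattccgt

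The capitals of *Bco1* are a DR1 match on the opposite strand, from base -56 to -44 relative to the start, and DR1 occurs in 0.222% of all 32851 promoters. Those of *Rarb* are a DR5 match on the gene's own strand, from -53 to -37, an element that occurs in 0.0974% of promoters. TAATTA occurs in 5.29% and DR2 in 0.268% of promoters, and neither was found in any of the 14 member promoters. *Rbp2* held no searched element in this window. A match is a run of letters and not a measured binding site, and a missing match says only that these letters are not in the window.

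In iPGC1afl/fl mice, HFD went with a higher signal of 5 retinoid-handling genes and a lower signal of the carotenoid-cleaving enzyme, whose probe was dim. Of the 9 members tested, 6 were called changed (adjusted p of 0.05 or lower and fold above 1.5), where 8.43% of all genes tested were called. *Rbp2*, *Adh1*, *Rdh7*, *Dhrs3* and *Aldh1a1* rose (5 members, beside 3.22% of all genes called higher) and *Bco1* fell (1 member, beside 5.2% called lower). In 4 of the 9 (*Rbp2*, *Rdh7*, *Dhrs3* and *Aldh1a1*) the groups did not overlap, as was so for 10.4% of all genes. The median log2 fold change of the 9 members was 0.75, beside 0.003 over all 21542 genes. The members were chosen with earlier results of these data known, so these shares describe them and are not independent support. Between the arrays labelled iPGC1a-/- and iPGC1afl/fl on HFD, 0 of 9 members were called, where 0.135% of all genes were.

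**Figure D1:**
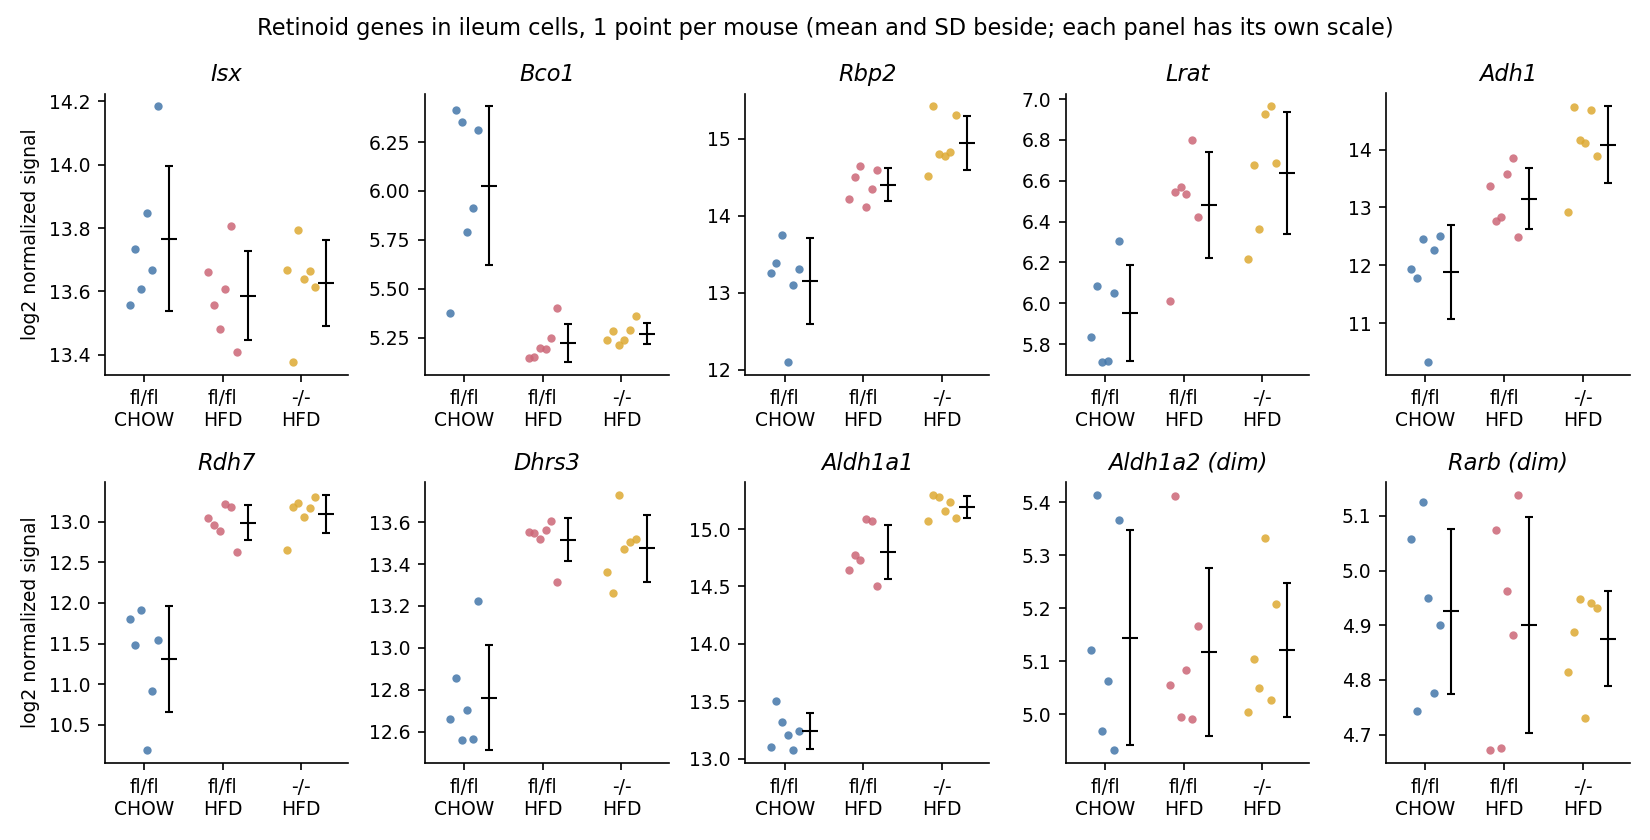
Log2 normalized signal of the 10 members in each mouse (1 point per mouse, 6 per group; mean and SD as a bar beside the points; each panel has its own scale, and signals are not comparable between panels). For *Rbp2*, *Rdh7*, *Dhrs3* and *Aldh1a1* every HFD mouse lies above every CHOW mouse. *Bco1* is lower in both HFD groups at a dim probe (raw intensities of 33 to 41 in iPGC1afl/fl mice on HFD), and *Aldh1a2* and *Rarb* lie near background.

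Uptake and cleavage come first. *Isx*, the gut homeodomain repressor of this route, had log2 normalized signals from 13.56 to 14.18 (median 13.70) in iPGC1afl/fl mice on CHOW and from 13.41 to 13.81 (median 13.58) on HFD. The groups overlapped. The diet difference was -0.18 (standard error 0.10, adjusted p = 0.21), with a 95% confidence interval from -0.39 to 0.03.

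*Bco1* encodes β-carotene 15,15′-oxygenase, which cleaves β-carotene to retinal. Its probe (mm9 chr8:119656996-119657055) was dim: the raw intensity was 45 to 95.5 in the CHOW mice and 33 to 41 in the iPGC1afl/fl mice on HFD, over a local background of 18 to 21 in these arrays. All 18 arrays were nevertheless well above background. On the log2 normalized scale the CHOW mice ran from 5.38 to 6.41 (median 6.11) and the iPGC1afl/fl mice on HFD from 5.14 to 5.40 (median 5.19), so that 1 CHOW mouse (replicate 1, 5.38) fell within the HFD range and the other 5 lay above it. *Bco1* fell by 0.80 on HFD (log2 scale, with a standard error of 0.13 and an adjusted p of 0.000166), to 0.573 of its signal on CHOW. The size depended on how background was handled. It was -1.35 with the background-subtracted signal and -0.43 (adjusted p = 0.00109, below the fold threshold) with a normexp correction that adds an offset of 50. In all 3 slides the difference was negative, from -0.94 to -0.67.

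The fixed list of other uptake and cleavage genes held *Scarb1*, *Cd36*, *Bco2* and *Cdx2*, all tested. *Cd36*, a scavenger receptor that takes up fatty acids and carotenoids, rose by 1.94 (standard error 0.24, adjusted p = 1.08e-05). Its signals were 6.28 to 8.37 (median 7.76) on CHOW and 9.44 to 9.69 (median 9.60) on HFD, without overlap. *Bco2*, which cleaves carotenoids off centre, was higher by 0.57 and passed on adjusted p alone (0.00355). *Scarb1*, the scavenger receptor that is a known target of Isx repression, lay near background: its brightest probe was well above background on 5 of 6 CHOW arrays and 3 of 6 iPGC1afl/fl arrays on HFD, with log2 normalized signals of 4.76 to 5.44 and 4.61 to 5.30. Its difference of -0.08 (adjusted p = 0.641) is therefore one between signals near background, and a change of *Scarb1* was not detectable at this signal. *Cdx2*, an intestinal homeodomain factor, had a difference of -0.09 (adjusted p = 0.604).

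Binding and esterification of retinol follow. *Rbp2* encodes the cellular retinol-binding protein of the enterocyte, which presents retinol for esterification. Its log2 normalized signals were 12.10 to 13.75 (median 13.29) on CHOW and 14.12 to 14.64 (median 14.43) on HFD. All 6 HFD mice lay above all 6 CHOW mice. *Rbp2* rose by 1.25 (standard error 0.21, adjusted p = 0.000173), a fold change of 2.38 with a 95% confidence interval from 1.77 to 3.21. The lowest CHOW value belonged to replicate 4, and without that mouse the difference was 1.04 (adjusted p = 8.7e-05).

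*Lrat* encodes lecithin retinol acyltransferase, which esterifies retinol bound to the Rbp2 protein. Its probe was also dim, with raw intensities of 50 to 89 on CHOW and 66 to 124 on HFD. The log2 normalized signals were 5.71 to 6.30 (median 5.94) on CHOW and 6.01 to 6.80 (median 6.54) on HFD, and they overlapped. The difference of 0.53 (standard error 0.14, adjusted p = 0.0103) passed on adjusted p, as did 24.6% of all genes, but not on fold (1.44). It passed both with the background-subtracted signal (0.77) and with the raw median signal aligned between arrays at the 75th percentile (0.59). On single slides it ranged from 0.11 to 0.90.

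Of the 9 other genes listed for retinol binding, transport and ester turnover, all tested, 1 was called, beside 8.43% of all genes. *Rbp7*, a retinol-binding protein known mainly from endothelium and fat, fell by 0.81 (standard error 0.15, adjusted p = 0.000648), from 10.94 to 11.57 (median 11.04) on CHOW to 9.90 to 10.67 (median 10.36) on HFD. The direction was opposite to that of *Rbp2*. *Dgat1*, an acyltransferase that can also esterify retinol, was higher by 0.48 and passed on adjusted p alone (0.00142).

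Among the enzymes that interconvert retinol and retinal, *Rdh7* had the largest diet difference of the members tested. It encodes a microsomal retinol dehydrogenase. Its signals were 10.19 to 11.92 (median 11.51) on CHOW and 12.63 to 13.21 (median 13.00) on HFD, without overlap. *Rdh7* rose by 1.68 (standard error 0.21, adjusted p = 1.27e-05), a fold change of 3.2 with a 95% confidence interval from 2.34 to 4.36. The gene has close relatives in a cluster on the same chromosome, and whether its probe also binds their transcripts was not tested. At their own probes, *Rdh1*, *Rdh9*, *Rdh16* and *Rdh19* were not called, with differences from -0.04 to 0.42 and adjusted p values from 0.138 to 0.757. The signals of *Rdh1* (means of 5.21 on CHOW and 5.46 on HFD) and *Rdh19* (5.04 and 5.00) were low. They lay near those of *Aldh1a2* below, so a change may not have been detectable there.

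*Adh1* encodes a cytosolic alcohol dehydrogenase that oxidises ethanol and retinol. It varied most between mice of one group: 10.33 to 12.51 (median 12.10) on CHOW and 12.50 to 13.86 (median 13.10) on HFD. The groups overlapped slightly, since the highest CHOW mouse, at 12.51, lay above the lowest HFD mouse, at 12.50. The difference was 1.27 (standard error 0.34, adjusted p = 0.0105), a fold change of 2.41 (95% confidence interval from 1.47 to 3.96). A second probe of *Adh1* gave 1.18 (adjusted p = 0.0245). Without CHOW replicate 4, the mouse at 10.33, the difference was 0.96 (adjusted p = 0.0228). On single slides it ranged from 0.71 to 1.98.

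*Dhrs3* encodes a retinal reductase that returns retinal to retinol and so limits retinoic acid. Its signals were 12.56 to 13.22 (median 12.68) on CHOW and 13.31 to 13.61 (median 13.55) on HFD, with a narrow gap and no overlap. *Dhrs3* rose by 0.75 (standard error 0.10, adjusted p = 2.76e-05). Its second probe, farther upstream on the same chromosome, rose by 0.77 (adjusted p = 0.00116). The retinal reductase *Dhrs3* and the dehydrogenases *Rdh7* and *Adh1* were thus called in the same direction.

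Of the 19 other retinol and retinal oxidoreductases listed, 15 were tested, 3 were called higher and 0 lower, beside 3.22% and 5.2% of all genes. *Adh4*, another retinol-oxidising alcohol dehydrogenase, rose by 0.83 (adjusted p = 0.0305). *Rdh12*, a retinal reductase known from photoreceptors, rose by 0.76 (adjusted p = 0.00408). *Dhrs4*, a peroxisomal carbonyl reductase that accepts retinal, rose by 0.65 (adjusted p = 8.25e-05), from signals of 12.49 to 12.95 on CHOW to 13.06 to 13.63 on HFD. *Rdh5* and *Rdh14* passed on adjusted p alone, with differences of 0.41 and 0.28. *Rdh10*, the dehydrogenase that supplies retinal for embryonic retinoic acid synthesis, had a difference of -0.06 (adjusted p = 0.752).

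*Aldh1a1* encodes a retinaldehyde dehydrogenase, which oxidises retinal to retinoic acid. It separated the diets with the smallest adjusted p of the members. Its signals were 13.07 to 13.50 (median 13.22) on CHOW and 14.50 to 15.09 (median 14.75) on HFD. The gap between the groups was wider than either group's range. *Aldh1a1* rose by 1.56 (standard error 0.10, adjusted p = 4.3e-09), a fold change of 2.95 (95% confidence interval from 2.55 to 3.41), and by 1.44 to 1.71 on single slides. Leaving out each mouse in turn kept the difference between 1.50 and 1.63.

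*Aldh1a2*, the retinaldehyde dehydrogenase of mesenchyme and of gut dendritic cells, was near background. It was well above background on 5 of 6 CHOW arrays and on 3 of 6 arrays of each HFD group, with log2 normalized signals of 4.93 to 5.41 on CHOW and 4.99 to 5.41 on HFD. The difference was -0.03 (standard error 0.10, adjusted p = 0.871), and its sign changed between processing settings. Of the other 3 genes listed for this step, only *Aldh1a7* was tested. This close relative of *Aldh1a1* rose by 0.79 (standard error 0.11, adjusted p = 3.74e-05), from 10.78 to 11.24 (median 10.91) on CHOW to 11.16 to 11.88 (median 11.85) on HFD. Whether the probes of *Aldh1a1* and *Aldh1a7* bind each other's transcripts was not tested.

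*Rarb* encodes retinoic acid receptor β, itself a classical retinoic acid target gene. None of its 4 probes passed the filter. The brightest was well above background on 2 of 6 CHOW arrays, 0 of 6 iPGC1afl/fl arrays on HFD and 1 of 6 iPGC1a-/- arrays, with raw intensities of 25 to 37. In the fit without a filter its diet difference was -0.02 (adjusted p = 0.92), which is a difference between signals near background. A change of *Rarb* was not detectable at this signal.

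**Figure D2:**
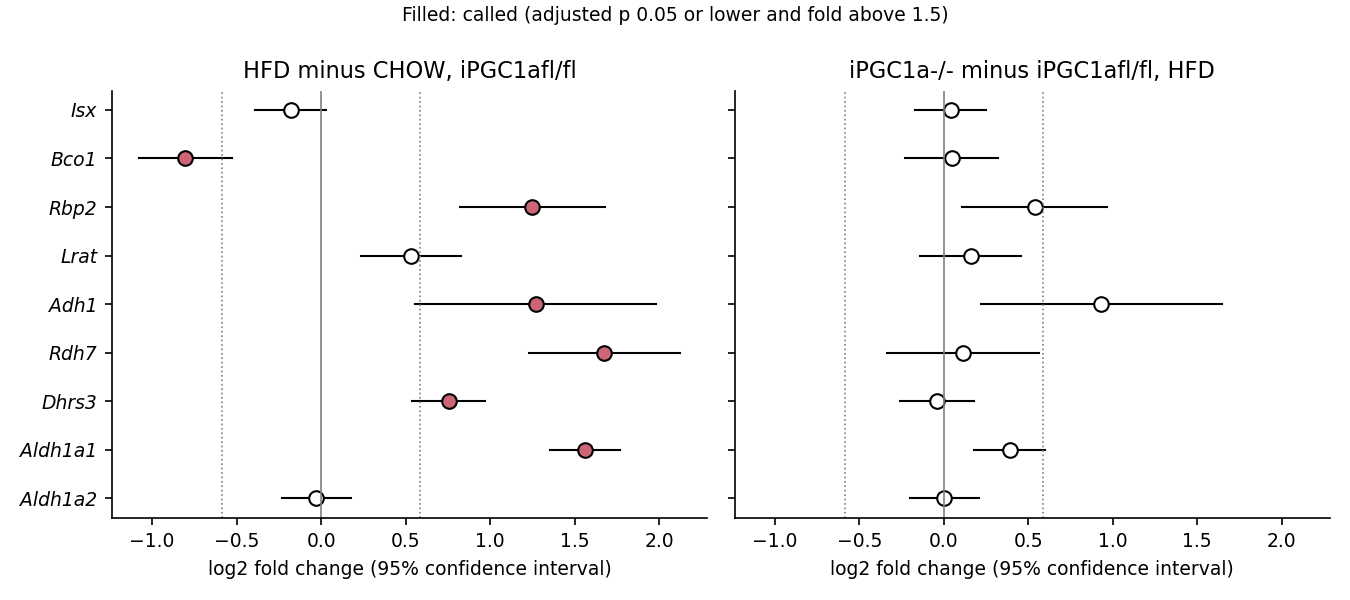
Log2 fold change with its 95% confidence interval for the 9 members tested, for HFD minus CHOW in iPGC1afl/fl mice (left) and iPGC1a-/- minus iPGC1afl/fl on HFD (right); filled points are called and dotted lines mark a fold of 1.5. On the left 6 members are called, from *Bco1* at -0.80 to *Rdh7* at 1.68, and on the right 0 are called and *Adh1* is farthest from 0 at 0.93.

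No retinoic acid receptor was called on diet. Of the 8 genes listed for retinoic acid binding and receptors, 5 were tested and 0 were called, beside 8.43% of all genes. *Rara* had a difference of 0.17 (adjusted p = 0.129), *Rarg* one of -0.17 (adjusted p = 0.443), *Rxra* one of 0.10 (adjusted p = 0.327) and *Rxrb* one of -0.03 (adjusted p = 0.838). *Cyp26b1*, 1 of 3 listed enzymes that clear retinoic acid and the only one tested, was higher by 0.33 and passed on adjusted p alone (0.02), at a normalized signal near background (30.4 to 38.8 on CHOW and 33.2 to 50.5 on HFD). Of 5 genes listed as retinoic acid responsive, 2 were tested. *Tgm2*, tissue transglutaminase, fell by 0.89 (standard error 0.13, adjusted p = 5.01e-05), from 12.13 to 12.72 (median 12.36) on CHOW to 11.15 to 11.88 (median 11.44) on HFD, and *Rarres2* had a difference of 0.05 (adjusted p = 0.927). Over all 51 listed pathway genes, 37 were tested, 5 were called higher and 2 lower, beside 3.22% and 5.2% of all genes. The median log2 fold change of the 37 was 0.14, beside 0.003 over all genes.

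**Figure D3:**
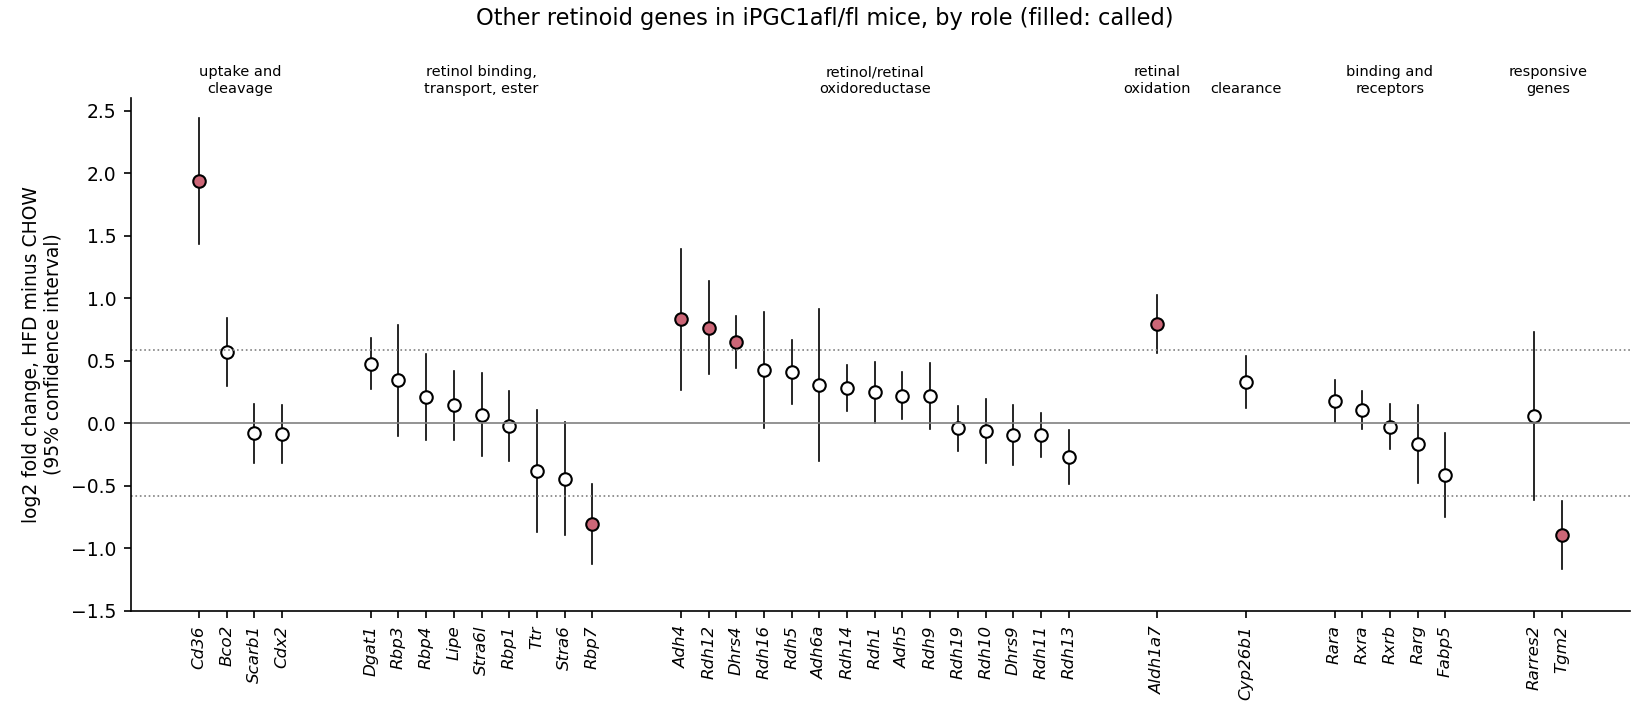
Log2 fold change, HFD minus CHOW, in iPGC1afl/fl mice, with its 95% confidence interval, for the 37 other retinoid genes tested, by role; filled points are called and dotted lines mark a fold of 1.5. *Cd36* is highest at 1.94, the called oxidoreductases lie between 0.65 and 0.83, and *Rbp7* and *Tgm2* are called lower.

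Between the genotype labels on HFD, no member passed the adjusted p in limma, beside 0.227% of all genes, and for 0 of 9 members were the groups without overlap, beside 0.966%. At an unadjusted p of 0.05, 3 of 9 members passed, as did 2002 of all 21542 genes, and 8 of 9 differences were positive, as were 11180 over all genes. *Aldh1a1* was at 15.07 to 15.30 (median 15.20) in the iPGC1a-/- arrays, against 14.50 to 15.09 (median 14.75) in iPGC1afl/fl mice, so that 1 value kept the ranges in contact. Its difference was 0.39 (standard error 0.10, adjusted p = 0.175), with 0.35 to 0.44 on single slides. *Rbp2* was at 14.52 to 15.42 (median 14.82), a difference of 0.54 (adjusted p = 0.43). *Adh1* was at 12.91 to 14.74 (median 14.14), a difference of 0.93 (adjusted p = 0.419), with 0.98 at its second probe (adjusted p = 0.421).

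The other 6 members tested had genotype differences between -0.04 and 0.16. *Aldh1a2*, near background, was at 5.00 to 5.33 (median 5.08), a difference of 0.004 (adjusted p = 0.993) whose sign changed between processing settings. *Rdh7* was at 12.65 to 13.30 (median 13.17), a difference of 0.11 with a 95% confidence interval from -0.33 to 0.56. *Dhrs3* was at 13.26 to 13.73 (median 13.49), a difference of -0.04 (95% confidence interval from -0.26 to 0.18) whose sign changed when its probes were averaged. *Isx* was at 13.38 to 13.79 (median 13.65), a difference of 0.04 (95% confidence interval from -0.17 to 0.25). *Bco1* stayed at 5.21 to 5.36 (median 5.26), a difference of 0.05 (95% confidence interval from -0.23 to 0.32) whose sign changed with the background correction and scaling. *Lrat* was at 6.21 to 6.96 (median 6.68), a difference of 0.16 (adjusted p = 0.744). Of the 37 other retinoid genes, 0 were called, beside 0.135% of all genes. The genotype comparison on chow was not analysed here, and both comparisons use the same iPGC1afl/fl mice on HFD.

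Mice of one group also differed among themselves, and some members did so together. Over deviations from the group means, *Isx* and *Dhrs3* had the highest Pearson r of the 36 member pairs, 0.86 (Spearman's rho 0.69), and 0.71 without the 2 mice farthest in *Isx*. This was the case although the diet difference of *Dhrs3* was positive and that of *Isx* was not. *Rdh7* and *Adh1* had an r of 0.75, which was 0.53 without CHOW replicate 4, and *Rbp2* and *Rdh7* one of 0.72, which was 0.36 without that mouse. *Rbp2* and *Isx* had the lowest r, -0.39. These are descriptions over 18 arrays that share 3 slides and 1 normalization.

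**Figure D4:**
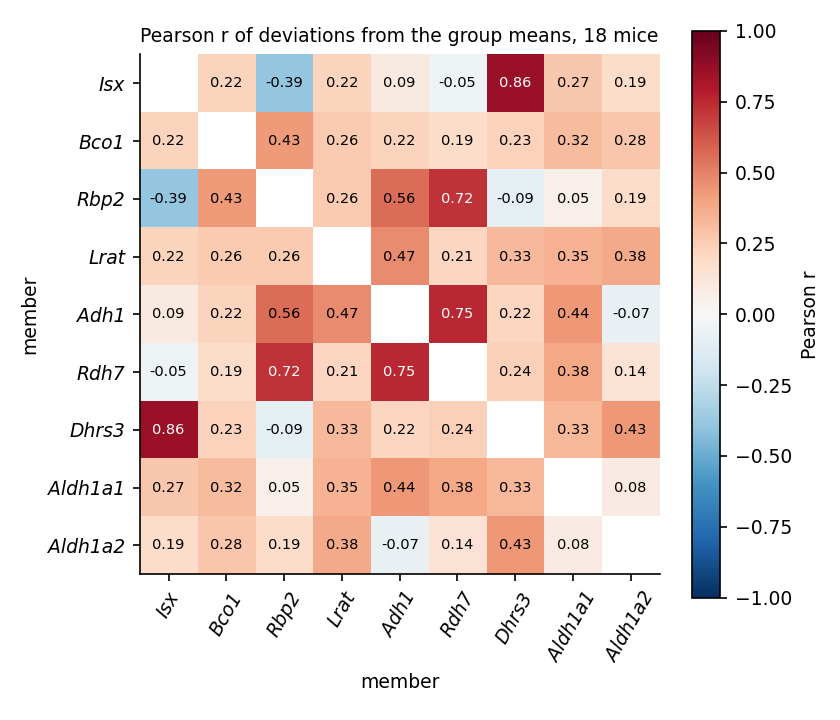
Pearson r between members over the deviations of 18 mice from their group means, for the 9 members tested (red positive, blue negative). *Isx* with *Dhrs3* is highest at 0.86, and *Adh1*, *Rdh7* and *Rbp2* form a second block between 0.56 and 0.75 that weakens without CHOW replicate 4.

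Over the 18 arrays, differences between groups included, the gene most like *Aldh1a1* among 21470 was *Retsat*, which encodes retinol saturase, with a Pearson r of 0.98 (0.67 within groups). *Retsat* was at 10.42 to 11.17 (median 10.84) on CHOW, 12.22 to 13.36 (median 12.85) in iPGC1afl/fl mice on HFD and 13.10 to 13.90 (median 13.48) in iPGC1a-/- mice on HFD. Next to it stood *Faah*, a fatty acid amide hydrolase, and *Otop2*, a proton channel, at 0.98 each, and the lowest were *Tnk2* (-0.96), *Mboat1* (-0.96) and *Runx1* (-0.96). Within groups the r was 0.46 for *Faah*, 0.24 for *Otop2*, -0.34 for *Tnk2*, -0.16 for *Mboat1* and -0.63 for *Runx1*. For *Rbp2* the highest were *Syp* (0.98), *Tm4sf5* (0.98) and *Slc3a2* (0.98) and the lowest *Atxn7l1* (-0.96), *Abracl* (-0.96) and *Tmem171* (-0.96). For *Rdh7* they were *Odf3b* (0.98), *Tmem135* (0.97) and *Cbr1* (0.96) against *Apobec2* (-0.96), *Pmvk* (-0.96) and *Hk2* (-0.95).

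*Dhrs3* was most like *Stamos* (0.94), *Ppara* (0.94), the fatty acid sensing nuclear receptor, and *Dusp12* (0.94), and least like *Ripk3* (-0.95) and a pair of unnamed transcripts. *Adh1* was most like *Aadac* (0.95), *Gstm6* (0.95) and *Pcdh19* (0.95), and least like *Cdkn2a* (-0.96), *Chic1* (-0.92) and *Atp2a3* (-0.91). *Bco1* was most like *Pde6a* (0.92), *Galnt3* (0.92) and *Sptlc2* (0.92) and least like *Scd2* (-0.91), *Gal3st1* (-0.91) and *Svip* (-0.90). *Ppara* rose on HFD by 1.63 (adjusted p = 7.81e-09) and *Scd2*, a stearoyl-CoA desaturase, by 2.54 (adjusted p = 5.84e-06). Each such r over all arrays holds the diet difference of both genes.

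Marker lists of the cell types in the preparation also moved with diet, and their part in the members' differences was not tested. A marker is said here to rise or fall where it was called, as were 3.22% of all genes (higher) and 5.2% (lower). In bulk samples, fewer cells of a type and less RNA per cell cannot be told apart. The 10 enterocyte markers were all measured, 2 of them (*Alpi* and *Apoa4*) rose and 0 fell, and their summed signal was 818120 to 1001120 on CHOW and 966219 to 1144280 on HFD. Of 6 markers of villus tip enterocytes, all measured, *Egfr*, *Nt5e* and *Slc28a2* fell and 0 rose, and their median log2 fold change was -0.54, with a summed signal of 100215 to 154351 on CHOW and 105194 to 147196 on HFD. Of 6 markers of proximal enterocytes, *Fabp1* and *Lct* rose and *Slc40a1* fell, with a median log2 fold change of 0.11. Their summed signal was 57182 to 191235 on CHOW and 223181 to 272345 on HFD. The lowest of these sums, 57182, belonged to CHOW replicate 4, which also had the lowest *Rbp2*, *Rdh7* and *Adh1*. Without it the same number of members, 6, were called on diet. The other CHOW sums, 161745 to 191235, still lay below every sum of the iPGC1afl/fl mice on HFD. Leaving this mouse out therefore did not test the part of these markers.

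The ileal identity was present on both diets: all 5 ileal markers were measured, and *Fabp6* averaged 17.14 on CHOW and 17.03 on HFD. *Fgf15* rose, and *Slc10a2* and *Slc51b* fell. Of 6 goblet cell markers 5 fell. Of 6 T cell markers 5 fell and *Cd4* rose, with a summed signal of 10255 to 18556 on CHOW and 11687 to 21229 on HFD. Of 5 B cell markers measured 3 fell (summed signal 1140 to 3817 on CHOW and 680.2 to 1585 on HFD). Of 7 dendritic cell and macrophage markers measured, *Itgax* and *H2-Aa* fell. Of 8 stromal markers 4 were measured. *Vim* fell by 0.98 (adjusted p = 0.000875), while *Col1a2* (-0.10), *Col3a1* (-0.04) and *Dcn* (0.07) were not called. Of the remaining lists, 1 gene each was called: *Top2a* (crypt and cycling cells), *Mmp7* (Paneth cells), *Chga* (enteroendocrine cells) and *Trpm5* (tuft cells) fell, and *Mettl7b* (colonocytes) rose. Between the genotype labels on HFD no marker was called, beside 0.135% of all genes. The proximal sum was 244848 to 322525 in iPGC1a-/- mice, against 223181 to 272345 in iPGC1afl/fl mice. Its lowest value in iPGC1a-/- mice belonged to replicate 1, also the lowest of its group in *Rbp2*, *Rdh7*, *Adh1*, *Lrat* and *Aldh1a1*. The part of the markers in the genotype differences was not tested.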

How the data were processed

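Ileum cells of 18 mice in 3 groups were measured on Agilent arrays. The authors deposited scanner files of Feature Extraction 10.10.1.1, per the labels, with intensity values (median and mean signal, local background and a background-subtracted signal) that were not normalized across arrays. A second deposited file of the authors holds log2 values of 33095 probes, which per the study's methods were filtered, batch-corrected (washing bath, labelling serial) and brought together by qsmooth. Those batches are not named in the labels, so that correction was not repeated. Per array, the authors' log2 values correlated at 0.999994 to 0.999998 with the values normalized here. They therefore differ little from values without that correction. Each of the 3 slides held 2 arrays of every group.

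Control and outlier spots were removed, and repeated spots of a probe averaged (56605 probes). A probe entered the test if, in at least one group, 5 or more of the 6 arrays were well above background (32726 probes). Log2 median signals were normalized by a rewritten qsmooth with a window of 0.05 (R 4.3.3). The test was limma 3.58.1 (lmFit and eBayes) with all 3 groups fitted together, and p-values were adjusted after Benjamini and Hochberg over every probe tested. A gene is represented by its brightest probe over all arrays. Probe coordinates are those of the files (mm9), and the exon of a probe was not determined. Promoters came from RefSeq (GRCm38.p6). Plots were drawn with matplotlib 3.10.9.

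Named genes were the 10 members, listed pathway genes where called or where a member result needed them, and the 3 genes most and least like each called member. The members and lists were chosen with earlier results of these data known. Between 56.3% and 62.3% of an array's spots were well above background. With 6 arrays in each group, the standard error for the median gene was 0.11 on the log2 scale. The fit was tested on simulated arrays. Alternatives were other background corrections, normalizations and filters, the authors' log2 values, slide or replicate number as a block, only the groups compared, another variance model, no fold threshold, averaged probes and each array left out. Nothing in the labels says whether mice of a group shared a cage or litter.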

Additional observations from a re-analysis of the deposited data

Results flagged for a closer look

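Single mice stood far from the rest of their group, by Dixon's test at its 95% critical value, in 5 of 48 gene and group sets tested. The genes were the 9 members tested and the pathway genes called on diet, all read in the same mice. Such sets are not independent, so their count cannot be set against the test's own rate of about 1 in 20. Among the members the flagged sets were *Adh1* in iPGC1afl/fl mice on CHOW and *Dhrs3* in iPGC1afl/fl mice on HFD. For *Adh1*, replicate 4 was at 10.33 on the log2 scale beside a median of 12.27 in the other 5. For *Dhrs3*, replicate 6 was at 13.31 beside 13.55. Among the pathway genes, *Aldh1a7* was at 11.16 in iPGC1afl/fl mice on HFD replicate 6 beside 11.86, *Cd36* at 9.58 in iPGC1a-/- mice on HFD replicate 1 beside 10.39, and *Rbp7* at 11.57 in iPGC1afl/fl mice on CHOW replicate 4 beside a median of 11.04 in its group. CHOW replicate 4 and HFD replicate 6 of the iPGC1afl/fl mice each appear in 2 of the 5.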

How the results depend on the processing

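On diet, 5 to 7 members were called over the processing alternatives and 6 or 7 with single mice left out; on genotype, 0 were called throughout. *Lrat* joined the called members with the background-subtracted signal (0.77), with the raw median signal aligned at the 75th percentile (0.59), with no fold threshold (0.53) and without CHOW replicate 6 or HFD replicate 1 of the iPGC1afl/fl mice (0.61 in either case), while *Bco1* left them under normexp (-0.43). The pathway genes called on diet were 11 with the background-subtracted signal and 12 with no fold threshold, and 6 to 8 with single mice left out. With no fold threshold, 5296 genes were called on diet and 49 on genotype. With single mice left out the genotype count ran from 19 to 38 (29 in full), and it was 19 without iPGC1afl/fl replicate 1, 2 or 4 on HFD or iPGC1a-/- replicate 3, and the diet count ran from 1625 to 2013. The cause of these shifts was not tested.

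Signs changed only for differences near 0 among the members. On diet, *Aldh1a2* was at 0.0393 with the background-subtracted signal, 0.00788 under normexp and 0.0837 with the aligned median signal, and between -0.0821 and 0.00651 with single mice left out. On genotype, *Aldh1a2* was at -0.0037, -0.00523 and -0.0449 under those settings and at -0.000294 under quantile normalization, and between -0.0348 and 0.061 with single mice left out. *Bco1* was at -0.139, -0.0257 and -0.0064 on genotype under the first 3 settings, and *Dhrs3* at 0.078 with averaged probes and between -0.0897 and 0.00322 with single mice left out.

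Whether the replicate numbers pair the mice was not settled. The deviations of same-numbered mice correlated above 0.1 in 4 of 6 pairs on diet and in 3 of 6 on genotype. The mean correlation on diet was 0.13 for same-numbered mice and -0.03 for other pairs, and on genotype 0.10 and -0.02. On diet 3 and on genotype 2 of the 6 mice correlated best with their own number. With the replicate number as a block, 6 members and 1828 genes were called on diet, and 0 members and 25 genes on genotype. *Bco1*, *Lrat*, *Aldh1a2* and *Rarb* were dim, and what limited the precision of each member was not tested.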
